A study of Bos taurus with 36 samples.

Results

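Cytosolic ribosomal protein genes were followed in 3 organs of male bovine fetuses (heart, gonads, liver) and in the blood of the heifers that carried these fetuses. They were taken as every row of the count table with a bovine RefSeq protein-coding symbol that starts with RPL or RPS and a digit, or that reads RPLP0, RPLP1, RPLP2 or RPSA, with the RPS6K kinases left out. The rule took 85 of the 35092 rows, of which 45 encode large subunit proteins and 31 small subunit proteins, 8 are paralogs of these, and 1, RPS19BP1, encodes a nucleolar protein that binds RPS19 and is not part of the ribosome. RPL35A and the paralogs RPL10L and RPS27L were listed at 0 in all 36 libraries, and the other 82 genes (44 large, 31 small, 6 paralogs and RPS19BP1) passed the filter on low counts in every tissue.

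All samples came from Day 42 of gestation. The 10 fetuses are numbered by weight, from fetus 1 (1.253 g) to fetus 10 (1.69 g), and each had been transferred as a Day 7 embryo. In the ET_D7 group, fetuses 1 to 5, the heifer was on Day 7 of its cycle (synchronous transfer), and in the ET_D9 group, fetuses 6 to 10, on Day 9 (asynchronous transfer). Every ET_D9 fetus was therefore heavier than every ET_D7 fetus, so that weight and transfer group cannot be told apart. Libraries were available from 9 hearts (not fetus 7), 8 livers (not fetuses 6 and 7) and 10 maternal blood samples. Another 9 were titled gonad, with fetal testicle as tissue (not fetus 2), and are called gonads here by that label alone. Blood had been prepared with another library kit, so it was analysed by itself and its levels were not set against those of the organs.

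A ribosome joins a large and a small subunit, each made of ribosomal RNA and of proteins that are present once per particle, apart from the acidic stalk proteins RPLP1 and RPLP2. The messenger RNAs of these proteins begin with a pyrimidine tract through which the growth-regulating kinase mTOR controls their translation, and growing cells spend a large part of their transcription on them. Proteins made in excess of their partners are degraded, and some of them, such as RPL5 and RPL11, bind MDM2 when subunit assembly is disturbed.

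Total counts were 20930367 to 35857434 per heart library, from 22762065 to 39649051 in the gonads, from 18231089 to 34454772 in the liver and from 26602415 to 40812354 in blood. A pair of gonad libraries and a pair of liver libraries stood apart because they were nearly the same. Among 6632 genes with at least 1000 counts in the gonads of both fetus 6 and fetus 8, 89.9% had counts within 0.5% of a single ratio, and the median squared difference was 0.00016 of its sampling variance, where sampling noise gives 0.455. The livers of fetuses 1 and 2 also differed by less than sampling noise (0.304). Each pair was counted as 1 sample, as the mean of both, which left 8 gonad and 7 liver samples. Among 82 ribosomal protein genes, 78 agreed within 0.5% in the gonad pair, while among the others RPL34 and RPS4Y1 were 5.19 and 1.57 times higher in fetus 8 than in fetus 6. Cardiomyocyte markers (8 genes, summed) lay between 27341 and 37954 CPM (counts scaled to the total of each library, with TMM factors) in the hearts and hepatocyte markers (6 genes) between 22393 and 40431 CPM in the livers. The gonads held mesonephros markers at 374 to 450 CPM and Sertoli cell markers at 21.0 to 35.5 CPM against 9.80 to 21.5 CPM in the hearts. Of the Sertoli cell markers, CLDN11 (median 15.0 CPM in gonads, 0.52 CPM in hearts) and SOX9 (4.82 and 1.83 CPM) were higher in the gonads. AMH (2.78 and 2.96 CPM), DHH (1.21 and 3.08 CPM) and INHA (3.23 and 3.60 CPM) were lower. Leydig cell markers overlapped, at 9.16 to 21.1 CPM in the gonads and 6.64 to 16.2 CPM in the hearts. None of 5 germ cell markers reached 10 counts in every gonad library. Apart from CLDN11 and SOX9, these markers did not bear out the testicle label. The tissue make-up of the libraries labelled gonads was not tested. Cardiomyocyte markers also summed to 1732, 601 and 316 CPM in the livers of fetuses 3, 4 and 5, and to 3510 and 1133 CPM in the blood of the heifers carrying fetuses 2 and 5.

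The 82 genes together took 9.89% to 12.9% of the counts outside mitochondrially encoded genes in the heart, 7.88% to 12.1% in the gonads, 8.88% to 16.5% in the liver and 3.65% to 6.0% in blood. The ratio of large subunit to small subunit counts differed more between hearts than between samples of any other tissue. It was 1.72 ± 0.194 over 9 hearts (SD), 1.37 ± 0.0720 over 8 gonad samples, 1.89 ± 0.0747 over 7 livers and 1.42 ± 0.0404 over 10 blood samples. In the ET_D7 hearts the ratio was 1.86, 1.94, 1.57, 1.91 and 1.86 for fetuses 1 to 5, and in the ET_D9 hearts it was 1.75, 1.57, 1.62 and 1.38 for fetuses 6, 8, 9 and 10. Hearts with a low ratio were those of fetuses 3, 8, 9 and 10, so the groups overlapped through fetus 3. Mitochondrially encoded genes took the smallest shares of the counts in the same 4 hearts, 23.5%, 25.5%, 28.5% and 17.1%, against 39.0% to 57.3% in the other 5, and the part of this in the ratio was not tested. Counts were not divided by transcript length here, so these ratios compare samples and tissues, not the number of large and small subunit transcripts.

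**Figure D1:**
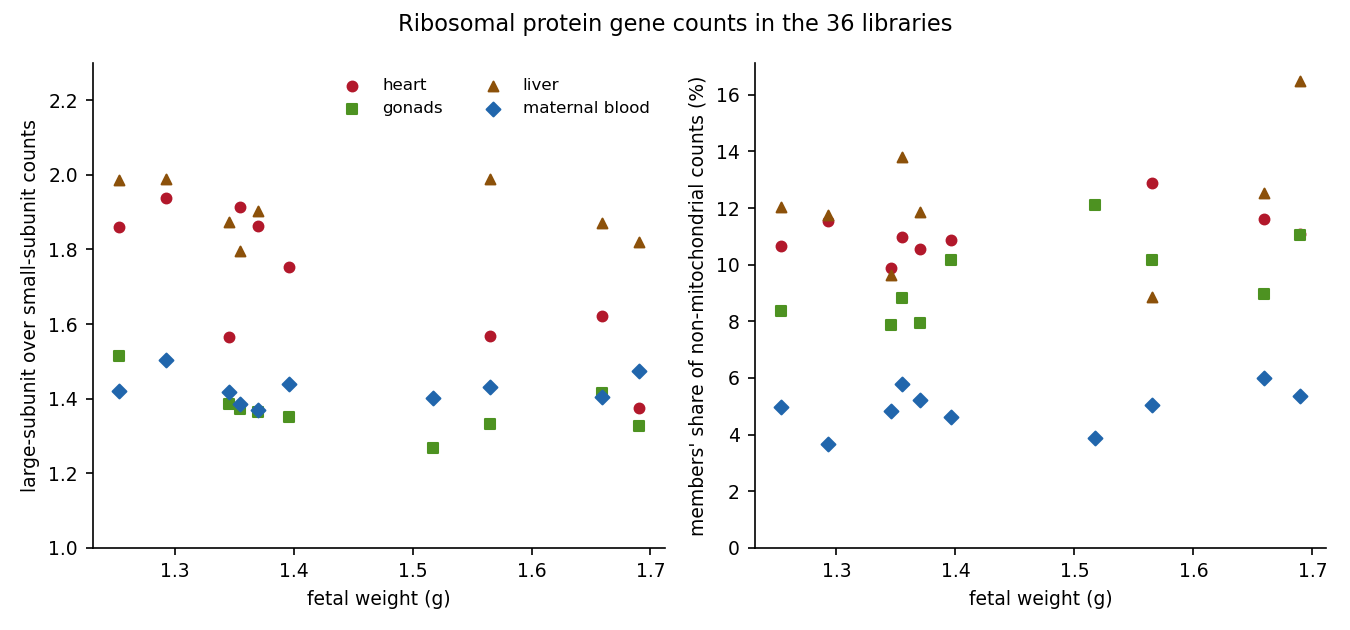
Large over small subunit counts (left, ratio, axis from 1) and the share of all counts outside mitochondrially encoded genes taken by ribosomal protein genes (right, percent) against fetal weight (g), 1 point per library, coloured by tissue. Liver ratios stayed between 1.80 and 1.99, while heart ratios spread from 1.38 in fetus 10 to 1.94 in fetus 2.

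Along fetal weight in the heart, 21 of the 82 genes rose and none fell at an adjusted p under 0.05 (edgeR quasi-likelihood test of a linear weight term, Benjamini-Hochberg over 16250 genes), where 5.23% of all genes tested rose and 1.54% fell. At an unadjusted p under 0.05, 33 rose and 2 fell, against 16.4% and 12.7% of all genes. The genes that rose were 9 of 44 large subunit genes, 10 of 31 small subunit genes, the paralog RPS4Y1 and RPS19BP1. Slopes, in log2 units per 0.1 g of fetal weight, had a median of 0.02 over the large subunit and 0.12 over the small subunit, beside −0.01 over all genes.

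Among the 6 genes with the smallest p, RPSA had the steepest slope, 0.66 (SE 0.118, n = 9, adjusted p = 0.0395). RPSA, also known as the laminin receptor, is a small subunit protein needed for maturation of the subunit. Its level was 141, 97.6, 308, 108 and 191 CPM in fetuses 1 to 5 and 387, 549, 448 and 1298 CPM in fetuses 6, 8, 9 and 10. The ET_D9 hearts all lay above the ET_D7 hearts, fetus 3 was the highest of the ET_D7 hearts, and fetus 10 was far above every other heart. RPS12, a small subunit protein, had the same order at its extremes, with 271, 222, 462, 282 and 334 CPM in the ET_D7 hearts and 577, 778, 645 and 1138 CPM in the ET_D9 hearts. Its slope was 0.44 (SE 0.0754, adjusted p = 0.0395).

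RPS23, which lines the decoding centre of the small subunit, rose with less spread. It measured 206, 189, 289, 237 and 244 CPM in fetuses 1 to 5 and 326, 508, 434 and 508 CPM in fetuses 6, 8, 9 and 10, a slope of 0.32 (SE 0.0484, adjusted p = 0.0395). RPS16, whose tail reaches the site of the initiator transfer RNA, had 278 to 408 CPM in the ET_D7 hearts and 452 to 637 CPM in the ET_D9 hearts (slope 0.25, SE 0.0464, adjusted p = 0.0395). On the large subunit, RPL39, a short protein at the exit tunnel of the nascent chain, measured 251, 203, 307, 292 and 299 CPM in the ET_D7 hearts and 333, 596, 479 and 545 CPM in the ET_D9 hearts (slope 0.30, SE 0.0495, adjusted p = 0.0395). RPL9, near the base of the stalk, measured 546, 462, 727, 632 and 617 CPM in the ET_D7 hearts and 789, 1097, 934 and 1246 CPM in the ET_D9 hearts (slope 0.27, SE 0.0476, adjusted p = 0.0395). In each of these genes fetus 2 was the lowest heart and the transfer groups did not overlap.

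**Figure D2:**
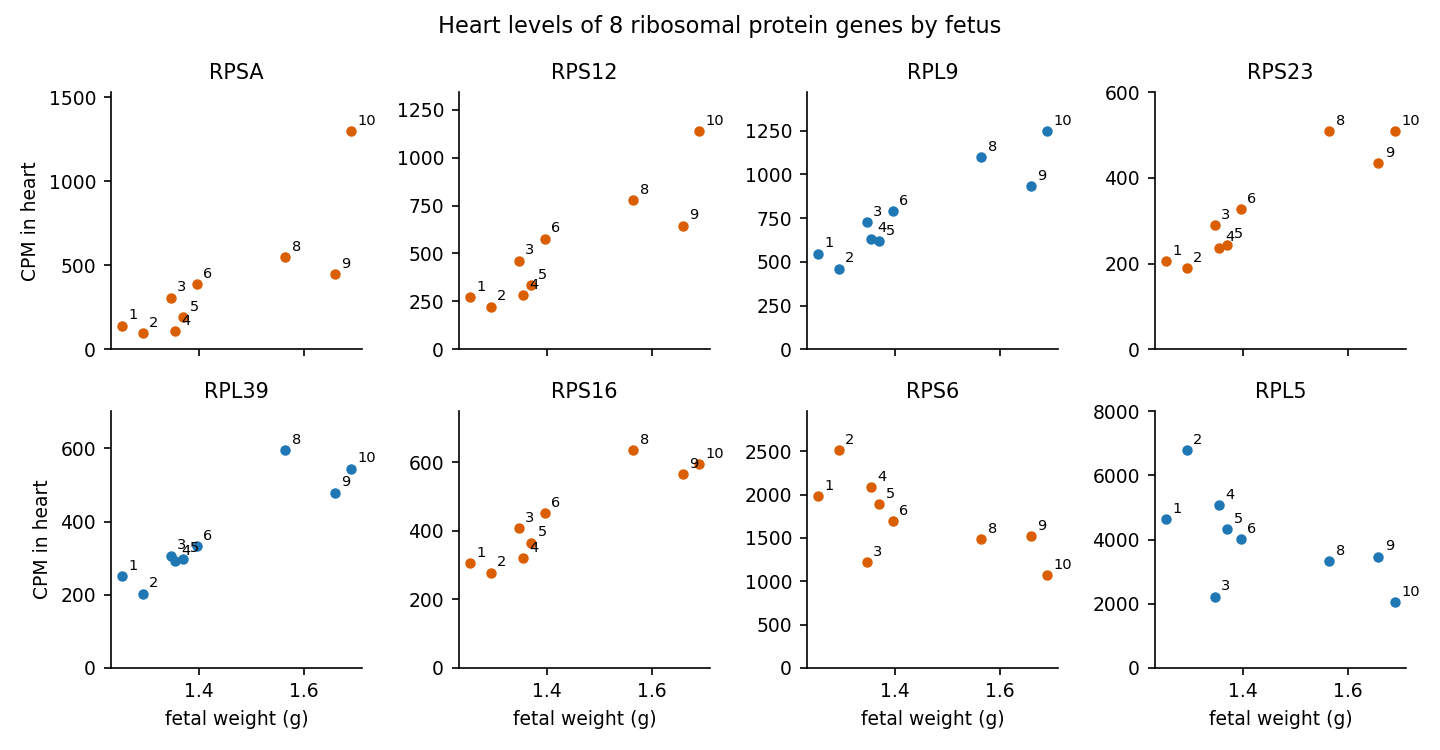
Heart levels (CPM, TMM within the heart) of 8 ribosomal protein genes against fetal weight (g), 1 point per fetus with its number, each panel with its own axis. RPSA runs from 97.6 CPM in fetus 2 to 1298 CPM in fetus 10, while RPS6 and RPL5 are lowest in fetuses 3 and 10.

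The other genes that rose included RPL8, RPL11, RPL12, RPL27, RPL30, RPLP0 and RPLP2 on the large subunit and RPS2, RPS3, RPS4X, RPS20 and RPS27A on the small subunit, with slopes between 0.17 (RPS2) and 0.56 (RPLP0). Stalk proteins bind the elongation factors, and RPLP0, the protein that anchors the others, measured 56.3 to 170.4 CPM in the ET_D7 hearts and 185 to 550.0 CPM in the ET_D9 hearts. RPS4X measured 141 to 477 CPM and 376 to 1277 CPM in the same groups, and here fetus 3 stood above fetus 6. Ratios of the highest to the lowest heart were 13.3 for RPSA, 9.77 for RPLP0, 9.05 for RPS4X, 6.23 for RPL30 and 5.12 for RPS12, and the median over the 82 genes was 1.78, beside 1.98 over all genes with at least 10 counts in every heart.

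At the other end of the order stood RPL5, which carries the small ribosomal RNA of the large subunit into the particle, and RPS6, the target of the S6 kinases. RPL5 measured 4635, 6797, 2222, 5082 and 4320 CPM in the ET_D7 hearts and 4015, 3317, 3465 and 2044 CPM in the ET_D9 hearts, a slope of −0.22 (SE 0.0895, adjusted p = 0.132). RPS6 measured 1979, 2517, 1219, 2088 and 1886 CPM and 1690, 1483, 1524 and 1074 CPM, a slope of −0.17 (SE 0.0629, adjusted p = 0.109). Neither passed the test after adjustment, and both were lowest in fetuses 10 and 3, the hearts in which RPSA was high for its group. These heart patterns went with other values of the libraries. Fetuses 3 and 10 had the lowest cardiomyocyte marker sums (27408 and 27341 CPM against 31857 to 37954 CPM), and the 5 endothelial markers, all with at least 10 counts in every heart, summed to 197 to 253 CPM in the ET_D7 hearts and 266 to 359 CPM in the ET_D9 hearts. Their part in the slopes was not tested, and in bulk tissue fewer cells of a type and less RNA per cell cannot be told apart.

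The heart calls rested on the scaling and on single fetuses. With library size alone in place of TMM, the median slope of all genes moved from −0.01 to 0.12, 78 of the 82 genes had a positive slope in place of 53, and none was called (61 had an unadjusted p under 0.05), whereas the median of the 82 genes relative to that of all genes was 0.06 on both scales. Without fetus 1, 2, 4, 5, 8 or 10 no gene passed, without fetus 6, 9 or 3 there were 17, 22 and 30, and without fetuses 3 and 10 together none passed and 60 slopes were positive. Within transfer groups, that is with the group as a covariate, none passed, 42 of 82 slopes were positive and 4 genes had an unadjusted p under 0.05. With the mitochondrial share as a covariate none passed and 80 slopes were positive.

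**Figure D3:**
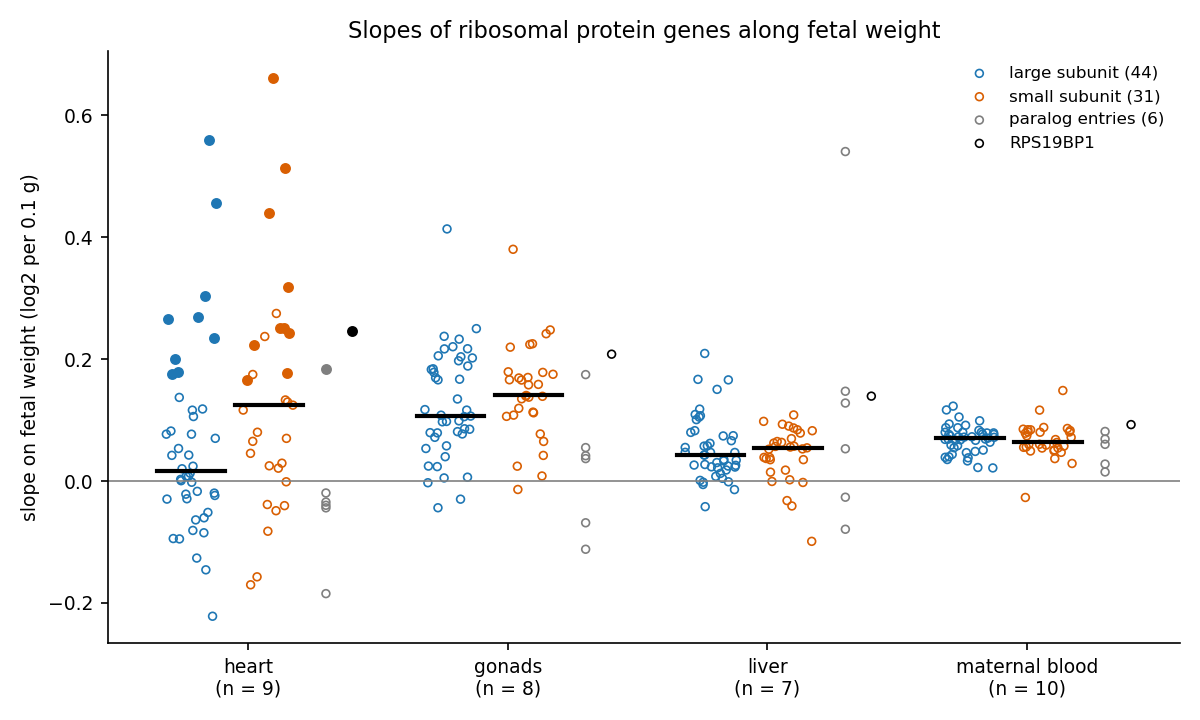
Weight slopes (log2 CPM per 0.1 g) of large and small subunit genes, paralogs and RPS19BP1 in the 4 tissues, 1 point per gene, filled where the adjusted p was under 0.05, with bars at the medians of both subunits. Filled points occur in the heart alone (21 genes). RPL3L in blood, at −0.84, lies outside the axis.

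In the gonads, 76 of the 82 genes had a positive slope and none passed the test, as did none of the 17670 genes tested (0% called). At an unadjusted p under 0.05, 25 rose and none fell, against 3.45% and 2.41% of all genes, and DESeq2 also called none. The median slope was 0.11 over the large subunit, where 41 of 44 were positive, and 0.14 over the small subunit, where 30 of 31 were, beside 0.01 over all genes. RPL30, a large subunit protein, had the smallest p, with 403, 631, 704 and 520.3 CPM in fetuses 1, 3, 4 and 5 and 824, 852, 824, 822 and 870.2 CPM in fetuses 6 to 10 (slope 0.22, SE 0.0600, p = 0.00482, adjusted p = 0.746). RPL39 measured 248, 359.9, 451 and 267 CPM and 529, 504, 529, 477 and 615 CPM in the same groups (slope 0.25, SE 0.0693, adjusted p = 0.746). For both genes the ET_D9 gonads lay close together and above all ET_D7 gonads, among which fetus 1 was the lowest.

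RPL12, at the stalk base, measured 513, 767, 794 and 722 CPM in the ET_D7 gonads and 1054, 1234, 1054, 1042 and 1003 CPM in the ET_D9 gonads (slope 0.22, SE 0.0650). RPL32, RPL7 and RPL37A had slopes of 0.20, 0.17 and 0.22 and completed the 6 with the smallest p. All 4 had an adjusted p between 0.746 and 0.778. The gonads of fetus 7 were the highest for 63 of the 82 genes and those of fetus 1 the lowest for 42 (shares over all genes are not given here). Fetus 7 also had the highest share of mitochondrially encoded genes (7.23%, others 3.31% to 4.65%) and the highest erythroid marker sum (73.0 CPM from 7 markers, others 25.5 to 42.7 CPM), whose part in this was not tested. A smooth curve of weight with 3 degrees of freedom called 12 of the 82 genes, where it called 5.28% of all genes. Of the 6 genes, RPL37A had a negative gonad slope (−0.03) in 1 of 16 alternatives. RPL30, RPL39, RPL12, RPL32 and RPL7 stayed positive in all 16. Outside the 6, slopes of RPL36, RPL28, RPL10A, RPL29, RPS3A and RPS6, positive in the main fit, also turned negative in 1 alternative each, down to −0.23 for RPL36.

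RPL34, chosen after its values were seen, did not follow the other genes in the gonads. RPL34 measured 440.1, 503, 610.1 and 2114 CPM in fetuses 1, 3, 4 and 5 and 496, 667, 2576, 596 and 3510 CPM in fetuses 6 to 10. It was several times higher in fetuses 5, 8 and 10 than in the other gonads, in both transfer groups, and it was among the few genes on which the nearly identical libraries of fetuses 6 and 8 differed. Its slope was 0.41 (SE 0.206, adjusted p = 0.866).

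Because weight and transfer group went together, the groups were also set side by side without a model. In the heart, 22 of the 82 genes were higher in every ET_D9 fetus than in every ET_D7 fetus (26.8%, against 6.62% of all genes tested) and none was lower in every one (against 3.5% of all genes tested). These were 10 of 44 large and 12 of 31 small subunit genes. In the gonads, 23 were higher in every ET_D9 fetus (28.0%, against 3.6% of all genes) and none lower (against 4.66%), namely 15 large and 7 small subunit genes and RPS19BP1. In liver and blood, where 6.34% and 0.639% of all genes were higher in every ET_D9 sample and 9.25% and 0.645% lower, no ribosomal protein gene separated the groups either way. The heart count was 0 with library size alone, and the gonad count was between 24 and 32 under the other scalings tried.

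Of these genes 13 were shared by heart and gonads, 59.1% of the heart genes and 56.5% of the gonad genes, where 61 genes were shared over all genes tested, 5.67% and 9.59% of each list. The organs came from the same fetuses, so these lists are not independent of each other. The shared genes included RPL8, RPL9, RPL11, RPL17, RPL18, RPL30, RPL39, RPLP0 and RPLP2 on the large subunit and RPS12, RPS16 and RPS27 on the small subunit. RPS12 measured 222 to 462 CPM and 577 to 1138 CPM in the ET_D7 and ET_D9 hearts and 597 to 1210 CPM and 1282 to 2072 CPM in the gonads of the same groups.

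Heart and gonad slopes had the same sign in most genes. They were positive in both organs for 52 of the 82 genes, negative in both for 5 (among them RPL22L1, RPL3L, RPL5 and RPS7), and of opposite sign for 25 (30.5%, against 38.7% of the 15770 genes tested in both organs). The opposite signs were a negative heart slope and a positive gonad slope in 24 genes (29.3%, near the 23.8% of all genes) and the reverse in RPL23A (1.22%, against 15.0% of all genes). The 24 were 15 large subunit genes, 6 small subunit genes and 3 paralogs, and opposite signs occurred in 36.4% of the large and 19.4% of the small subunit genes. Their median slope was −0.04 in the heart and 0.06 in the gonads. In liver, 18 of the 24 had a positive slope (median 0.03), and in blood all 24 did (median 0.07). With library size alone 1 gene fell in the heart and rose in the gonads and 6 did the reverse. Taken as below or above the slope of the median gene, 19 genes were below in the heart and above in the gonads with TMM and 17 with library size alone.

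**Figure D4:**
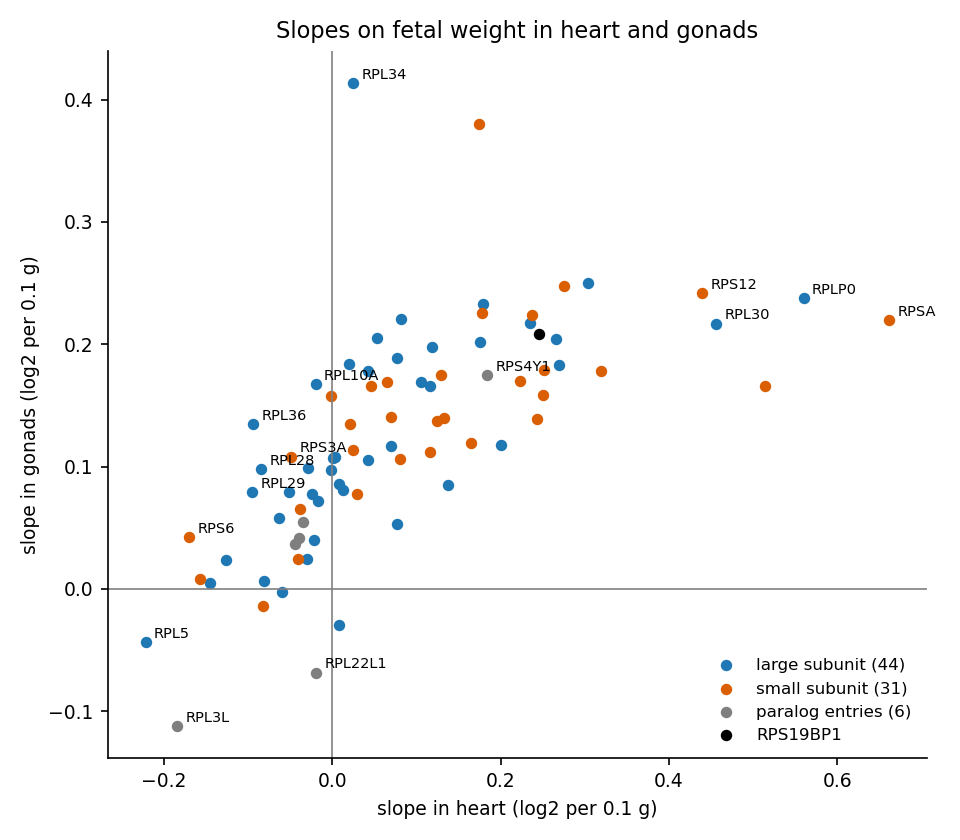
Weight slope in the gonads against the weight slope in the heart (both log2 CPM per 0.1 g, TMM), 1 point per ribosomal protein gene, coloured by class, with lines at 0. The upper left field holds 24 genes, the lower right 1, and RPSA and RPLP0 lie farthest to the right.

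The difference between the heart and gonad slopes was tested in 1 model over the 3 organs, and no ribosomal protein gene passed, where 0.0257% of 19489 genes did. At an unadjusted p under 0.05 there were 2 (6.49% of all genes), RPSA (heart minus gonads 0.46, SE 0.192, adjusted p = 0.703) and RPS4X (0.36, SE 0.155), both with positive slopes in each organ, and DESeq2 called none. Among the genes with opposite signs, RPS6 had the smallest p, with a difference of −0.20 (SE 0.0981, adjusted p = 0.792). Its gonad values were 1608, 1368, 1515 and 1398 CPM in the ET_D7 and 1669, 2193, 1669, 1304 and 1724 CPM in the ET_D9 fetuses, which overlapped. RPL36 (−0.21, SE 0.124), RPL10A (−0.17, SE 0.102), RPL28 (−0.17), RPL29 (−0.16) and RPS3A (−0.14) followed, with adjusted p between 0.851 and 0.910. With library size alone, heart slopes were positive for RPL36 (0.05), RPL10A (0.12), RPL28 (0.06), RPL29 (0.05) and RPS3A (0.10) and close to 0 for RPS6 (−0.02).

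Between heart and liver, RPSA was the single gene whose slopes differed (0.59, SE 0.179, adjusted p = 0.0455), where the difference was positive in 5.19% and negative in 1.98% of all genes tested. In the liver RPSA measured 160.4, 152, 211, 256 and 86.9 CPM in fetuses 1 to 5 and 73.2, 170.1 and 270 CPM in fetuses 8, 9 and 10, and the groups overlapped. With the fetus as a block the difference was 0.50 (adjusted p = 0.290), and it did not pass without fetus 1, 2, 4, 8, 9 or 10. DESeq2 called 4 ribosomal protein genes. The gonad and liver slopes differed for none, where 4.9% of all genes did, and 1 gene, RPL3L, had an unadjusted p under 0.05 (15.6% of all genes), with DESeq2 calling none as well.

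In the liver, 70 of the 82 slopes were positive with a median of 0.05, and none passed the test, where 0.136% of 16211 genes rose and 1.41% fell. None had an unadjusted p under 0.05 (4.11% of all genes rose and 8.62% fell at that level), and DESeq2 called none. The smallest p belonged to RPL26L1, a paralog of RPL26, with 85.5, 82.2, 50.7, 52.7 and 61.5 CPM in fetuses 1 to 5 and 76.6, 87.7 and 104 CPM in fetuses 8, 9 and 10 (slope 0.15, SE 0.0680, adjusted p = 0.411). RPL15 measured 48.9, 46.8, 39.9, 74.5 and 53.2 CPM and 32.0, 75.6 and 120.4 CPM, a slope of 0.21 (SE 0.107, adjusted p = 0.474). Both overlapped between transfer groups. RPL7, RPL38, RPS19BP1 and RPL3L had slopes of 0.17, 0.11, 0.14 and 0.54, the last from a gene with few counts. Among the livers, fetus 10 was the highest for 64 of the 82 genes and fetus 8 the lowest for 67, and the shares over all genes are not given here. Without fetus 10, 19 of 82 slopes were positive, with a median of −0.04. The erythroid markers, 7 genes all with at least 10 counts in every liver, also summed to their highest in fetus 10 (4735 CPM) and their lowest in fetus 8 (2824 CPM, others 3323 to 4287 CPM), and hepatocyte markers were lowest in fetus 10 (22393 CPM). Their part in the liver values was not tested.

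In maternal blood, 80 of the 82 slopes were positive, all except RPL3L and RPS9, with a median of 0.07 beside 0.00 over all genes. None passed the test, as did none of the 16284 genes tested (0% called), and DESeq2 called none. At an unadjusted p under 0.05, 10 rose (4.53% of all genes) and 1 fell (5.16%). RPS26, at the messenger RNA exit channel, had the smallest p, with 159, 109, 169, 161 and 139 CPM in the heifers carrying fetuses 1 to 5 and 138, 133, 193, 222 and 215 CPM in those carrying fetuses 6 to 10 (slope 0.15, SE 0.0447, adjusted p = 0.404). The groups overlapped, and the heifers of the 3 heaviest fetuses were the highest. RPL36 (0.10), RPL29 (0.11), RPL13 (0.12) and RPL26L1 (0.07) had smaller p than the rest, with adjusted p between 0.440 and 0.464.

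The other gene of these 6 was RPL3L, the striated muscle paralog of RPL3, with a slope of −0.84 (SE 0.318, adjusted p = 0.446) on few counts. It measured 4.30 CPM in the blood of the heifer carrying fetus 2, 1.95 CPM for fetus 5 and at most 0.512 CPM in the other 8, and the same pair of samples had the high cardiomyocyte marker sums given above, whose part in it was not tested. Blood from the heifer of fetus 2 was the lowest for 68 of the 82 genes, and RPS3A stood farthest down, at 625 CPM against 1684 to 3009 CPM in the other 9. The heifer of fetus 9 was the highest for 57, and the shares of all genes lowest or highest in these samples are not given here.

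Between the organs, ribosomal protein genes differed by the TMM scale in a way that set the gonads low. Against the gonads, 52 of the 82 genes were higher in the heart and 2 lower (edgeR, adjusted p under 0.05, over 19489 genes), where 28.3% of all genes were higher and 28.6% lower. Against the liver, 19 were higher and 26 lower in the heart (32.9% and 34.3% of all genes), and 9 were higher and 53 lower in the gonads (35.9% and 36.7% of all genes). The heart was higher than the gonads in 31 of 44 large and 19 of 31 small subunit genes and lower in none of either. Median log2 differences over the 82 genes were 0.59 for heart against gonads, −0.07 for heart against liver and −0.75 for gonads against liver.

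With library size alone the directions turned, with 5 genes higher and 43 lower in the heart than in the gonads and 36 higher and 16 lower in the gonads than in the liver. That scaling moved the median of all genes to −1.11 and 1.03. Relative to the median gene, the 82 genes stood at 0.66 and 0.64 for heart against gonads and at −0.72 on both scales for gonads against liver. The organ differences given here are therefore relative to the bulk of the genes.

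In 42 genes the gonads were below heart and liver alike (16.9% of all genes), namely 27 large and 13 small subunit genes, RPL3L and RPS19BP1. RPL36 measured 1273 ± 317 CPM over the hearts (SD, n = 9), 419 ± 133 CPM over the gonads (n = 8) and 2893 ± 499 CPM over the livers (n = 7), a gonads against liver difference of −2.78 (SE 0.205, adjusted p = 7.94e-12). RPLP1, an acidic stalk protein, measured 4726 ± 902, 1484 ± 295 and 9263 ± 2451 CPM in the same order. RPL5, also among the genes furthest down in the gonads, differed little between heart and liver (log2 0.00) and was lower in the gonads than in the heart by 1.78.

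The liver exceeded both other organs in 25 genes (26.1% of all genes). RPLP2, the partner of RPLP1 in the stalk, measured 757 ± 182, 673 ± 251 and 4099.6 ± 994 CPM in heart, gonads and liver, so it was 2.44 and 2.60 log2 units higher in liver while heart and gonads differed by 0.16 (adjusted p = 0.505). RPL34 and the paralogs RPL36AL and RPL7L1 completed the 4 leading liver genes. Lower in the liver than in both were 8 genes (23.5% of all genes), RPL7, RPL10, RPL15, RPL22L1, RPS3, RPS4X, RPS13 and RPSA.

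Higher in the heart than in both others were 12 genes (13.6% of all genes), among them RPL7, RPL10, RPL37A, RPL39, RPS7, RPS13, RPS14, RPS26, RPS28, RPS29 and RPL3L. RPL10, which joins the large subunit late in its assembly, measured 1043 ± 117, 680.1 ± 73.9 and 229.7 ± 48.2 CPM in heart, gonads and liver, a heart against liver difference of 2.18 (SE 0.128, adjusted p = 9.51e-14). RPS13 measured 404 ± 48.3, 235 ± 41.4 and 127 ± 31.2 CPM, and RPL39 481 ± 182, 265 ± 78.6 and 210.3 ± 88.0 CPM. The heart against gonads direction of RPL10, RPS13 and RPL39 turned with library size alone. The gene lower in the heart than in both others was RPL26L1 (10.6% of all genes), at 63.8 ± 6.50, 80.8 ± 15.1 and 95.6 ± 29.9 CPM. Its heart against gonads difference of −0.35 passed narrowly (adjusted p = 0.0463, edgeR) and was no longer called in 9 of 17 alternatives (adjusted p up to 0.165), which were both fits with the replicate block and leaving out fetus 1, 2, 6, 7, 8, 9 or 10.

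**Figure D5:**
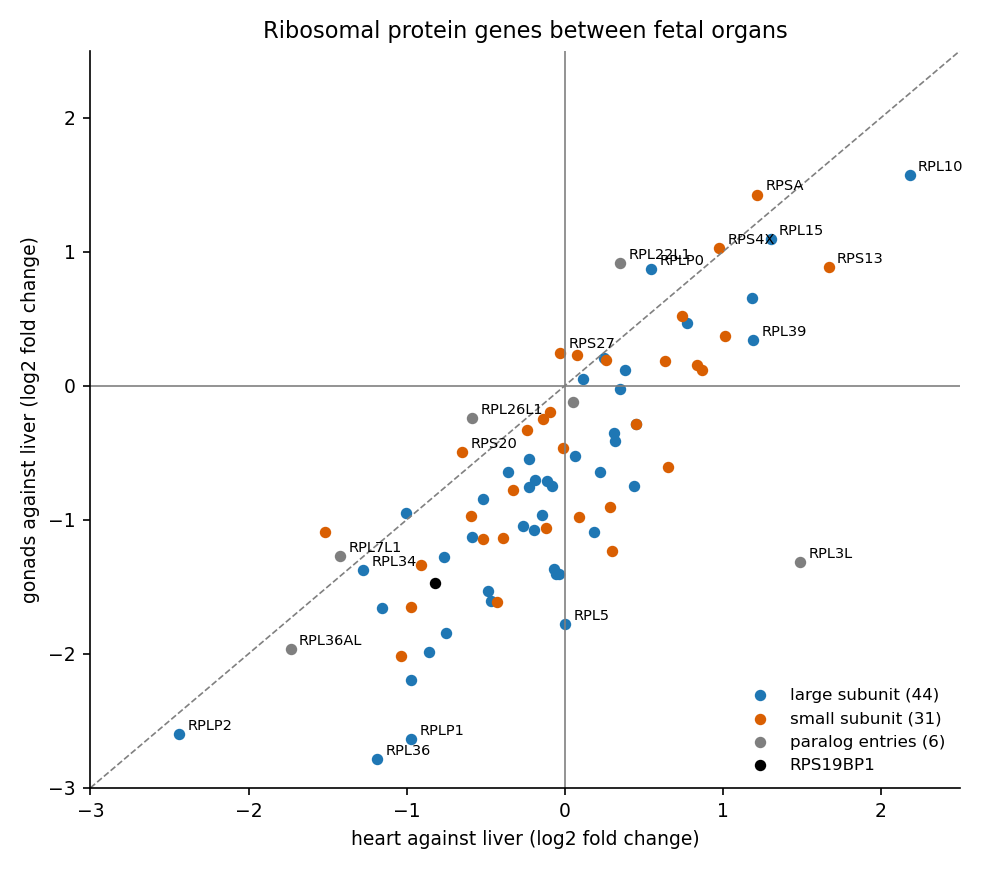
Log2 difference of gonads against liver (vertical) and of heart against liver (horizontal), 1 point per ribosomal protein gene, coloured by class, with a dashed line where heart and gonads are equal. Most points lie under the line, and RPL36, RPLP1 and RPLP2 are the lowest on the vertical axis while RPL10 is at the upper right.

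The organs also differed within the ribosomal protein counts alone. RPL10 made up 1.13%, 1.24% and 0.205% of the ribosomal protein counts of heart, gonads and liver. Taken as a share of these counts, 29 genes were higher and 53 lower in heart than in gonads, in place of 71 and 11 by CPM.

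The paralogs did not move as a group. RPL22L1, the paralog of RPL22, was the gene for which the gonads exceeded heart and liver (18.2% of all genes did), at 76.8 ± 5.37, 113 ± 21.2 and 60.3 ± 17.6 CPM in heart, gonads and liver. Within the gonads it was highest in fetus 1, at 236 CPM, and between 130.2 and 199 CPM in the others (slope −0.07, SE 0.0550). RPL3L measured 2.82 ± 0.872, 0.401 ± 0.116 and 0.996 ± 0.924 CPM and was 2.80 log2 units higher in heart than in gonads (SE 0.499, adjusted p = 3.35e-05). RPS4Y1, named as a paralog of RPS4X, did not differ between the organs beyond its spread (35.5 ± 9.24, 31.2 ± 12.8 and 34.2 ± 12.6 CPM, adjusted p of at least 0.613). It rose in the heart, with 17.5 to 29.2 CPM in the ET_D7 and 27.5 to 41.3 CPM in the ET_D9 fetuses (slope 0.18, SE 0.0464, adjusted p = 0.0462), and was 7.16 CPM in the gonads of fetus 1 against 38.5 to 72.4 CPM in the others. RPS4Y1 was counted at 27.6 to 42.0 CPM in the heifers' blood as well. Reads of paralogs and processed copies may have been shared between genes, since how they were counted is not given in the sources used here.

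FAU and RACK1 encode ribosomal proteins under other symbols, FAU as a fusion with a ubiquitin-like protein and RACK1 as a scaffold on the small subunit. Neither passed the test along weight in a tissue. FAU came nearer in the heart, at 0.11 (SE 0.0370, adjusted p = 0.0871), and RACK1 was at −0.02. Both were higher in heart than in gonads, by 0.46 and 1.26 log2 units for FAU and RACK1, and lower in gonads than in liver, by 1.27 and 0.57.

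Genes that act with ribosomal proteins were read from the same fits. In the heart, of 13 translation factors and other messages with the same pyrimidine tract, 4 rose, namely the elongation factor genes EEF1A1 (0.39) and EEF1B2 (0.52) and the initiation factor genes EIF3F (0.45) and EIF3K (0.19). Of 23 ribosome assembly genes 2 rose, EIF6 (0.38), whose product keeps the subunits apart, and POLR1B (0.18), a subunit of RNA polymerase I, where 5.23% of all genes rose. Their adjusted p lay between 0.0395 and 0.0497, the medians of the lists were 0.04 and −0.02 beside −0.01 over all genes, and with library size alone none of these genes passed. In gonads, liver and blood no gene of these lists passed the test (edgeR). At an unadjusted p under 0.05 there were 3 translation genes in the gonads, none in the liver, and 4 translation genes and 3 assembly genes in blood, all with positive slopes, where 3.45% of all genes in the gonads and 4.53% in blood had such a p and a positive slope.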

How the data were processed

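RNA from 36 samples was sequenced, by the labels with a stranded mRNA kit for the organs and another stranded kit for blood, and samples of low RNA quality were discarded by the study. Per the study's methods, adapters were removed with Trimmomatic, STAR 2.7.0b aligned the reads to the ARS-UCD1.3 assembly and featureCounts (Subread 2.0.3) assigned them to genes; the authors deposited whole-number counts for 35092 Entrez identifiers. Options for strand, shared reads and read pairs are not given in the sources used here. Identifiers were matched to RefSeq symbols (31630 matched); sequences and transcript lengths were not used here.

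Ribosomal protein genes, lists and tests were chosen with earlier results of these data known. Counts were analysed in R 4.3.3 with edgeR 4.0.16 (TMM, quasi-likelihood test, a minimum of 10 counts in 4 libraries, Benjamini-Hochberg adjustment over all genes tested). Weight slopes were fitted per tissue, and slope and organ differences over the 26 organ libraries, in all fits with each nearly identical pair counted as 1 sample. SE was taken as the log2 value over the square root of F. CPM use TMM factors within a tissue for values by fetus, and over the organ libraries for means ± SD. That 2 pairs of nearly identical libraries were counted once each (34 samples in the fits) was decided after seeing the data. By the labels, each fetus or heifer gave at most 1 sample per tissue. Whether the nearly identical libraries came from separate fetuses was not tested, and values by fetus list both libraries of a pair. The tests recovered known slopes on simulated counts, at a single size that was steeper than most slopes given here. Recovery of smaller slopes was not tested.

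Named genes were the 6 with the smallest p per slope (for heart minus gonads, among genes with opposite signs), the 4 highest and 4 lowest per organ, and all paralogs, RPS19BP1, FAU, RACK1 and, per other list, the 3 with the smallest p where any was called; other genes named were chosen after their values were seen. Some genes that these rules select are not reported here. Organs of a fetus share its animal number in the labels, so the fetus was the block; deviations of same-fetus organs from the organ means correlated between −0.29 and 0.34 (heart and gonads, n = 8). In the liver 333 genes jumped between at most 2 and at least 300 counts, none of them a ribosomal protein gene. Alternatives were DESeq2 1.42.0, other scalings and filters, a spline, covariates, a block and leaving out each fetus.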

Additional observations from a re-analysis of the deposited data

Results flagged for a closer look

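Of 67 tests for a sample far from the others, 4 were positive (5.97%), which is near the 1 in 20 that chance gives. RPSA in the heart of fetus 10 was at 1298 CPM, where the next heart was at 549 CPM. In the gonads of fetus 7, RPS6 was at 2193 CPM (next 1724 CPM) and RPL7L1 at 313 CPM (next 235 CPM). RPL3L was at 4.30 CPM in the blood of the heifer carrying fetus 2 (next 1.95 CPM). RPSA also differed in weight slope between heart and liver, by 0.59 (SE 0.179, adjusted p = 0.0455, edgeR), in a test of the difference itself. This difference was no longer called in 9 of 17 alternatives. On the TMM scale the heart level of RPSA was above the ET_D7 range in 4 of 4 ET_D9 fetuses, which no ribosomal protein gene showed with library size alone. Its liver level overlapped between the groups.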

How the results depend on the processing

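The number of ribosomal protein genes called along weight in the heart, 21, became 0 with library size alone, the spline, the transfer group or the mitochondrial share as a covariate, or without fetuses 3 and 10 (added after seeing the data, as were the mitochondrial share and every library on its own), and 33 with DESeq2; leaving out 1 fetus gave 0 to 30. In the gonads the spline called 12 in place of 0. The heart minus liver slope difference, called for 1 gene, was called for 0 with library size alone, without a filter or with the replicate block, for 4 with DESeq2, for 2 with every library on its own, with or without the block, and for 0 to 2 with 1 fetus left out. The organ comparisons of heart with gonads, heart with liver and gonads with liver kept 19, 17 and 36 genes at a log2 difference of at least 1, in place of 54, 45 and 62. With the replicate block these comparisons gave 59, 41 and 63. With library size alone heart against gonads reversed for RPL39 (−0.11), RPS13 (−0.28), RPL10 (−0.43) and RPS19BP1 (−0.31), and gonads against liver for RPS20 (0.55), which moves with the shift of all genes under that scaling. The other causes were not tested. Counts of RPL3L, 0 to 185 per library, limit its values.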

Other observations

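Genes that build or regulate ribosomes were compared between the organs as well, from lists that do not hold ribosomal protein genes, on the TMM scale (edgeR, adjusted p under 0.05; genes named here were chosen for their small p). Of 13 messages with a pyrimidine tract, 8 were higher in heart than in gonads and none lower, among them EEF2 (1.76, SE 0.119), the translocation factor, TPT1 (1.87) and EIF3H (2.12). Of 23 assembly genes 2 were higher in the heart and 12 lower, among them LTV1 (−1.88), NOP58 (−0.85, SE 0.0963) and TSR1 (−2.13), which act in the processing of ribosomal RNA or the maturation of the small subunit. Over all genes 28.3% were higher and 28.6% lower. Relative to the median gene, the list medians were 0.84 and −0.34, and 0.83 and −0.38 with library size alone, so the order of these lists held. With library size alone the messages with a pyrimidine tract were called higher in 3 and lower in 3, and the assembly genes, still mostly lower, in 0 and 22.

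Against the liver, 5 assembly genes were higher and 14 lower in the heart (32.9% and 34.3% of all genes), with NOP56 at −2.48 (SE 0.159) and NOP58 at −2.19 (SE 0.101), a pair of proteins of the same box C/D particles, while NPM1, a nucleolar chaperone, was at 1.14 (SE 0.156). Of 13 regulators, 3 were higher and 6 lower in heart than in gonads, and 4 higher and 7 lower in heart than in liver. By sign alone, 10 of the 13 were lower in heart than in gonads, while 6 were higher and 7 lower in heart than in liver. EIF4EBP1, a repressor of translation held in check by mTOR, went against most of this list in heart against gonads. It was higher in heart than in gonads by 3.70 (SE 0.256) and than in liver by 2.57 (SE 0.256). MYC, a transcription factor known to drive ribosome production, was lower in heart by 2.02 and 1.34 log2 units.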
